A study of Homo sapiens with 16 samples.

Results

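A549 lung adenocarcinoma cells were compared before and after 3 h of hepatocyte growth factor (HGF), the ligand of the receptor tyrosine kinase MET. The comparison used 4 of the 16 libraries of the series: both MET wt libraries with HGF for 3 h and both MET wt libraries without HGF (0 h), chosen by their labels alone. The other A549 libraries had 6 or 12 h of HGF, and 8 libraries came from NCI-H596, a lung adenosquamous line whose MET transcript lacks exon 14, at the same 4 times. All cells, controls included, were grown without serum for 12 h before HGF according to the labels. The methods section describes a longer serum deprivation for HGF treatments. The HGF dose of the sequenced cells is not given in the sources used here. Each MET status was represented by a single line, so that MET status and line cannot be told apart. The 0 h libraries were the only untreated ones, so that the effect of HGF and of 3 further hours in serum-free medium cannot be told apart either. The duplicates are described as biological, but the sources used here do not say that the 2 libraries of a group came from separate cultures. The p-values measure only the spread between these libraries, which may be technical.

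HGF makes MET dimerise and phosphorylate itself. The active receptor recruits adaptors that switch on the RAS and ERK kinases, PI3K and AKT, and STAT3. ERK then acts in the nucleus on SRF, ELK and CREB-type factors, and a first set of genes, the immediate early genes, is transcribed without any new protein being made. Many of them encode transcription factors (EGR, FOS, JUN and NR4A proteins), and others encode phosphatases and adaptors that shut the same cascade down. AKT keeps FOXO factors out of the nucleus, so that genes driven by FOXO are transcribed less.

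The libraries held 13706013 and 14300541 counts at 0 h and 15915862 and 13226488 at 3 h, and 15067 of the 42351 genes of the table had enough counts to be tested. Levels are given in CPM, counts scaled to the library size after TMM normalisation, replicate 1 before replicate 2, and they are not divided by gene length. The log2 fold change (log2FC) compares 3 h with 0 h of the same line in edgeR's quasi-likelihood fit. The value after ± is a standard error worked back from the F test, the absolute log2FC divided by the square root of F. It is approximate, and it can be too small for genes with few counts at 0 h. A gene is said to have risen or fallen where its Benjamini-Hochberg adjusted p was under 0.05 over all genes tested. For a gene given with its values, the call also held without each of the 4 libraries in turn except where a loss is stated. For a list, the calls said to be kept are those that held in all 4 of these leave-one-out fits. The 2 libraries at 0 h differed more from each other than those at 3 h (chi-square per degree of freedom 10.4 against 3.26). Of 9459 well-expressed genes, 12 were at least 2-fold apart between the 0 h libraries and 7 between those at 3 h.

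The cells carried the marks of the A549 label. CDKN2A and CDKN2B, a locus deleted in this line, had 0 counts in all 4 libraries, and their neighbour MTAP averaged 0.966 CPM at 0 h and 0.652 CPM at 3 h. The epithelial keratins KRT8 and KRT18 and the detoxifying enzymes NQO1 and AKR1B10 were all abundant, from 393 CPM upwards in group means. AKR1C1, of the same enzyme family, was at 127 and 85.3 CPM at 0 h and 69.6 and 69.6 CPM at 3 h (log2FC -0.61), a fall lost without replicate 1 at 0 h or either 3 h library (adjusted p up to 0.337). Of 15 markers of leukocytes, endothelium, fibroblasts and basal epithelium, 0 were called and 10 had at most 3 counts in every library, PTPRC, CD3E, LYZ and DCN being at 0. Their summed level was 12.95 to 15.9 CPM at 0 h and 14.5 to 15.5 CPM at 3 h, most of it COL1A1. MET itself stood at 1206 and 1275 CPM at 0 h and 1252 and 1271 CPM at 3 h (log2FC 0.02 ± 0.09, adjusted p = 0.897). The groups differed by less than the spread at 0 h. HGF had at most 1 count in any of the 4 libraries.

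After 3 h of HGF, the transcription factor genes EGR3, EGR2, FOSB, NR4A1, FOS and JUNB stood 3.90 to 7.89 log2 units above their untreated level. Cytokine genes (CXCL8, IL11), feedback inhibitors (SPRY4, DUSP8, NFKBIA) and the enzymes CYP1B1 and HAS2 rose as well. The FOXO targets PDK4 and TXNIP and the R-spondin receptor gene LGR4 fell. At 3 h, 1550 genes rose and 1079 fell, which is 10.3% and 7.16% of the genes tested and 17.4% together. Most of the changes were small. Of the genes that rose, 236 (1.57% of all tested) at least doubled, and of those that fell, 153 (1.02%) lost at least 2-fold. Among the rises, 58 genes gained at least 2 log2 units, 23 at least 3 and 13 at least 4. Without each of the 4 libraries in turn, 807 of the 1550 rises and 217 of the 1079 falls kept their call. So did 183 of the 236 larger rises and 60 of the 153 larger falls. In bulk RNA a lower level of a transcript and fewer cells making it cannot be told apart. Groups that did not overlap were common in themselves, with 57.3% of all tested genes in that state.

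**Figure D1:**
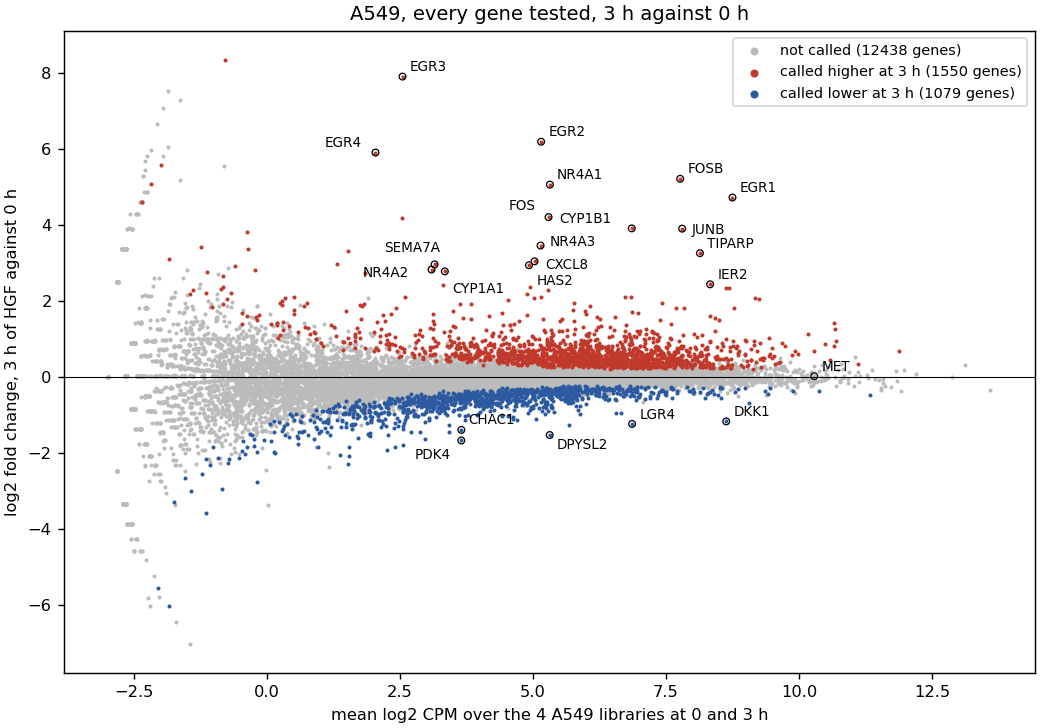
Mean log2 CPM of each tested gene over the 4 A549 libraries at 0 and 3 h (horizontal axis) against its log2 fold change at 3 h (vertical axis). Red points are the 1550 genes called higher, blue points the 1079 called lower and gray points the genes not called, and circles mark genes named in the text. Where the horizontal value reaches 3, the largest rise (EGR2 at 6.18) lies further from 0 than the largest fall (PDK4 at -1.67).

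The EGR zinc finger factors, which bind GC-rich promoter sites, were among the strongest rises. EGR2 was at 3.33 and 4.95 CPM at 0 h and 293 and 311 CPM at 3 h (log2FC 6.18 ± 0.15, adjusted p = 9.89e-13). EGR1 was at 55.9 and 118 CPM at 0 h and 2203 and 2362 CPM at 3 h (log2FC 4.72 ± 0.25, adjusted p = 5.25e-08). Its untreated pair was uneven, and the log2FC was 5.38 without replicate 2 at 0 h. EGR3 was nearly silent before HGF, with 0.217 and 0.424 CPM at 0 h and 71.9 and 85.03 CPM at 3 h (log2FC 7.89 ± 0.25, adjusted p = 3.04e-11). EGR4 was at 0.0723 and 1.06 CPM at 0 h and 33.9 and 35.2 CPM at 3 h (log2FC 5.90 ± 0.36, adjusted p = 5.25e-08). Its log2FC was 8.78 without replicate 2 at 0 h. In all 4 EGR genes both libraries at 3 h lay far above both at 0 h. For EGR1 and EGR2 the rule for naming the largest rises already required groups that do not overlap. The EGR corepressors NAB2 and NAB1, which bind EGR proteins and limit their activity, rose with them, NAB2 from 17.9 and 17.5 to 87.5 and 83.7 CPM (log2FC 2.28). NAB1 went from 25.5 and 23.6 to 56.8 and 55.4 CPM (log2FC 1.19).

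FOS and JUN proteins form the dimeric factor AP-1. FOSB was at 26.7 and 46.1 CPM at 0 h and 1294 and 1400.2 CPM at 3 h (log2FC 5.21 ± 0.20, adjusted p = 3.79e-10). FOS was at 7.38 and 10.9 CPM at 0 h and 166 and 171 CPM at 3 h (log2FC 4.20 ± 0.14, adjusted p = 3.04e-11). JUNB, whose untreated pair was tight, was at 57.9 and 57.8 CPM at 0 h and 827 and 898 CPM at 3 h (log2FC 3.90 ± 0.13, adjusted p = 3.04e-11). JUN, FOSL1 and FOSL2 had smaller changes. JUN went from 909 and 1062 to 2597 and 2704 CPM (log2FC 1.43). FOSL1 went from 897 and 1254 to 2594 and 2534 CPM (log2FC 1.25). FOSL2 went from 730.4 and 812 to 1151 and 1147 CPM (log2FC 0.58). JUND rose by 0.46, a call lost without replicate 1 at 0 h or replicate 2 at 3 h (adjusted p up to 0.171). Of the small MAF proteins, MAFK, a partner of CNC and AP-1 factors, rose by 0.95.

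All 3 NR4A orphan receptors, nuclear receptors that act without a known ligand, rose. NR4A1 was at 7.74 and 6.01 CPM at 0 h and 242 and 215 CPM at 3 h (log2FC 5.06 ± 0.14, adjusted p = 4.54e-12). NR4A3 was at 10.6 and 10.5 CPM at 0 h and 111 and 121 CPM at 3 h (log2FC 3.45 ± 0.13, adjusted p = 7.96e-11). NR4A2 was at 3.69 and 2.62 CPM at 0 h and 23.3 and 21.3 CPM at 3 h (log2FC 2.82 ± 0.19, adjusted p = 9.61e-08). Among the remaining early factors, IER2 went from 131 and 146 to 731 and 766 CPM (log2FC 2.44). KLF10, a TGF-beta-inducible repressor, went from 177 and 177 to 867 and 922 CPM (log2FC 2.34). BHLHE40, a repressor of clock genes, went from 294 and 307 to 1173 and 1311 CPM (log2FC 2.05). ATF3, a stress-inducible bZIP factor, went from 153 and 223 to 558 and 574 CPM (log2FC 1.59). ZFP36, which destabilises AU-rich mRNAs including those of early genes and cytokines, rose from 52.5 and 50.3 to 226 and 215 CPM (log2FC 2.10). Annotated exons on the opposite strand cover 52.2% of IER2, and since the strand setting of the counting is not given, its reads and theirs cannot be told apart.

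The promoters of the early genes are shown because the genes moved together. Promoters (RefSeq, GRCh38.p14, 250 bases before to 50 after the start) were read for 13 of the 17 genes looked up, namely the 15 largest rises with EGR3 and EGR4. Those of NR4A2, CYP1B1 and 2 other genes were not analysed here. Both strands were searched for the CArG box, the sequence bound by SRF, for the CREB half-site TGACGT, and for the sites TGACGTCA (full CREB site, which contains the half-site), TGANTCA (AP-1), TNGCGTG (the AHR and ARNT dimer) and GCGGGGGCG (EGR). The half-site was added after the sequences had been read. Among all 27305 promoters, 8.32% held the half-site, 1.98% the full site, 1.29% a CArG box, 7.76% the AP-1 site, 5.51% the AHR site and 5.02% the EGR site. The half-site was found in 5 of the 13, while IER2 held an AHR site and CXCL8 an AP-1 site. The letters of a CArG box were matched in 2, EGR1 and CYP1A1. The CYP1A1 match, CCTATAAAGG at -34 to -25 from the start, contains TATAAA, the letters of a TATA box. The full CREB site and the EGR site were found in 0 of the 13. The 150 bases before the start are printed 5′ to 3′ on the strand of the gene, with matches in capitals: TGACGT or its complement ACGTCA, the 10 bases of the CArG boxes in EGR1, and the AP-1 site in CXCL8.
EGR1, chr5:138465329-138465478 on the plus strand: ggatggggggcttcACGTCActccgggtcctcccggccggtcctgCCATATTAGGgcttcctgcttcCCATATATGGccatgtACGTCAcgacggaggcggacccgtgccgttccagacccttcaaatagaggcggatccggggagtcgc
EGR4, chr2:73293549-73293698 on the minus strand: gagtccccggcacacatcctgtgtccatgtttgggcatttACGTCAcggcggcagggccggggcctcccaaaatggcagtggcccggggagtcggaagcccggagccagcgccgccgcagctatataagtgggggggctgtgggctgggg
FOS, chr14:75278678-75278827 on the plus strand: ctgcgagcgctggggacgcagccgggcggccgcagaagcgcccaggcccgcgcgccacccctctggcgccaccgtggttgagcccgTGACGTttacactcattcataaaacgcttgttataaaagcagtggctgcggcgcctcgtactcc
FOSB, chr19:45467846-45467995 on the plus strand: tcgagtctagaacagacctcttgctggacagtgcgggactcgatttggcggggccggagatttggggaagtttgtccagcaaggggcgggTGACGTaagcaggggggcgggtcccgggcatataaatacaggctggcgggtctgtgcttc
NR4A3, chr9:99821735-99821884 on the plus strand: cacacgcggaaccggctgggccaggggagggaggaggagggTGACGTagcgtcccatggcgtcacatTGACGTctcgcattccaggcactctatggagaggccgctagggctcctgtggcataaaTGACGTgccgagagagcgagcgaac
CXCL8, chr4:73740419-73740568 on the plus strand: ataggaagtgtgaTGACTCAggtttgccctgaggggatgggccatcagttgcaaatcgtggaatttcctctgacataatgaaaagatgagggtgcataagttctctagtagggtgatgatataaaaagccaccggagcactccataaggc
NR4A3 held 3 half-sites in this stretch and EGR1 held 2 around its 2 CArG boxes, while FOS, FOSB and EGR4 showed 1 each, EGR4 having a second further upstream. No match was found in the windows of EGR2, JUNB, NR4A1, SEMA7A and TIPARP, which rose as well. Only 1 start per gene was read, so that promoters at any other start of these genes were not searched. A match is only a match of letters, and no binding was measured here. Only 161 of the 236 genes that doubled had an entry, and their shares were not set against the background.

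Counted as a list, 33 of the 43 immediate early genes rose and 0 fell, with 27 of the rises kept in every leave-one-out fit. Of all genes tested, 10.3% rose and 7.16% fell. The median log2 fold change of the list was 1.19, where that of all tested genes was -0.04, and 22 members at least doubled against 1.57% of all genes. The 10 members not called included some often counted as growth factor targets. MYC stood at 349 and 439 CPM at 0 h and 368 and 341 CPM at 3 h (log2FC -0.15, adjusted p = 0.36), so that the 3 h values lay within or below the untreated ones. ETS1 was at 456 and 586 CPM at 0 h and 634 and 655 CPM at 3 h (log2FC 0.31, adjusted p = 0.0715). The ERK-driven ETS factors ETV4 and ETV5 had log2 fold changes of -0.31 and -0.24.

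The A549 libraries at 6 and 12 h share their 0 h controls with the 3 h comparison, so their values are set beside it without a test. EGR1 stood at 619 and 577 CPM at 6 h and 99.8 and 96.7 CPM at 12 h. EGR2 stood at 91.2 and 82.6 CPM at 6 h and 10.8 and 12.2 CPM at 12 h. FOS stood at 41.9 and 36.1 CPM at 6 h and 9.48 and 8.75 CPM at 12 h, and all 3 were below both 3 h libraries by 6 h. JUNB was at 495 and 587 CPM at 6 h and 112 and 109.9 CPM at 12 h. The median log2 fold change of the 43 early genes was 1.19 at 3 h, 0.84 at 6 h and 0.39 at 12 h. Of the 33 early genes that rose, 24 had their highest mean of the 4 times at 3 h. So did 2212 of all 15067 genes tested and 520 of the 1550 rises. The 3 h values that picked the rises, the doubled genes below included, themselves favour a highest mean at 3 h. Over the 236 genes that had doubled at 3 h the same medians were 1.41, 1.52 and 0.85, with 104 highest at 3 h and 124 higher at 6 h than at 3 h. Cytokines were among the latter: IL11 was at 1913 and 2337 CPM at 6 h and 841 and 842 CPM at 12 h. CXCL8 was at 151 and 125 CPM at 6 h and 65.3 and 69.1 CPM at 12 h. The 153 genes that had lost at least 2-fold had medians of -1.30, -1.31 and -0.73.

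**Figure D2:**
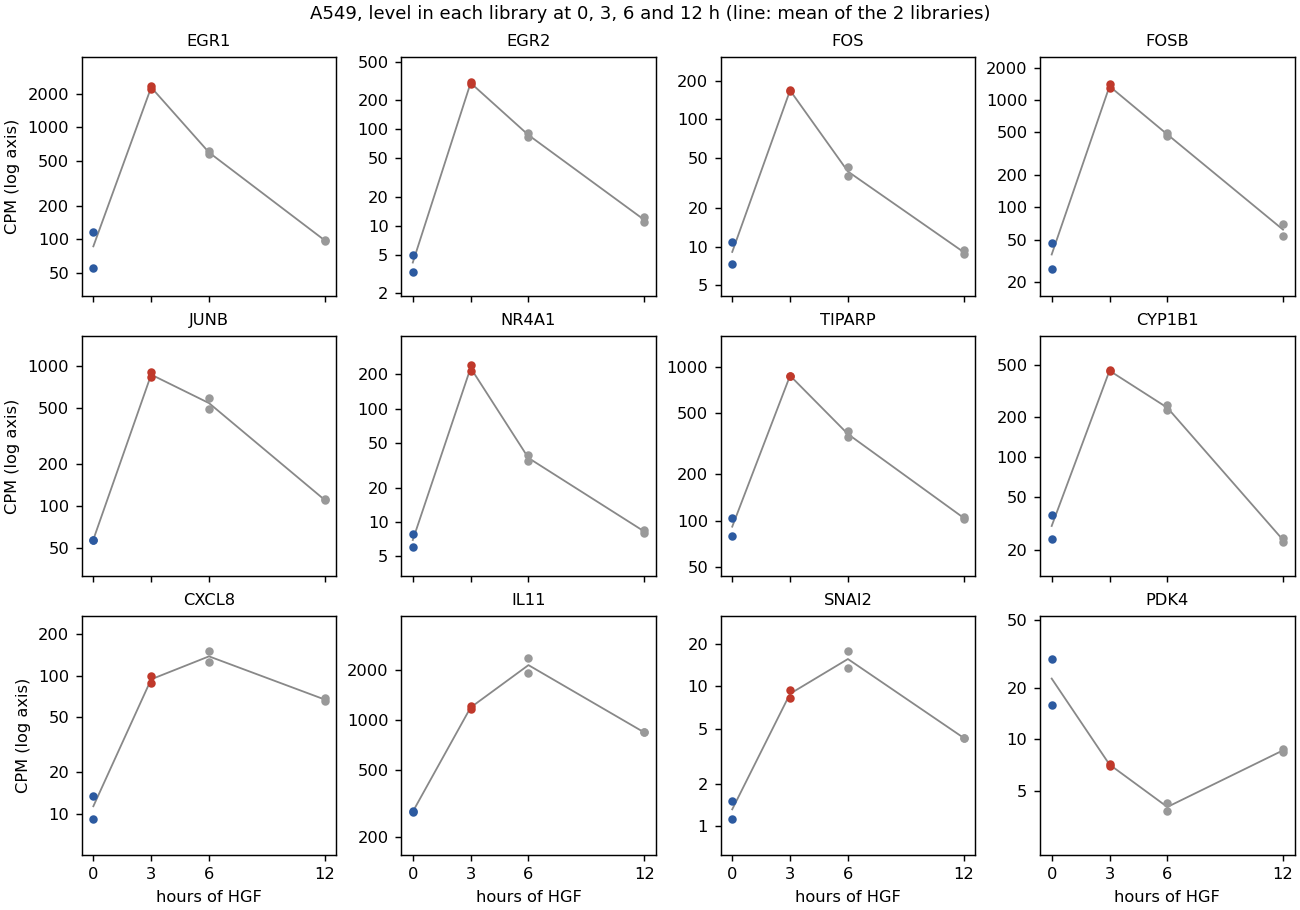
Level of 12 genes in each A549 library (CPM, log axis) against hours of HGF. Points are single libraries, blue at 0 h, red at 3 h and gray at 6 and 12 h, and the line joins the means of the 2 libraries. EGR1, EGR2, FOS, FOSB, JUNB, NR4A1, TIPARP and CYP1B1 are highest at 3 h, CXCL8, IL11 and SNAI2 are higher at 6 h, and PDK4 is lower at 3 and 6 h than at 0 h.

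Of 26 genes listed as feedback inhibitors of MAP kinases (ERK, JNK and p38) or of receptor kinases, 15 rose (14 kept) and 3 fell (1 kept). Of all genes tested, 10.3% rose and 7.16% fell. The median log2 fold change of the list was 0.44. The Sprouty proteins block RAS activation downstream of receptor kinases. SPRY4 was at 41.5 and 43.1 CPM at 0 h and 131 and 123 CPM at 3 h (log2FC 1.59 ± 0.13, adjusted p = 1.07e-06). SPRY2 was at 64.1 and 75.2 CPM at 0 h and 159.9 and 161 CPM at 3 h (log2FC 1.21 ± 0.11, adjusted p = 2.37e-06). The related SPRED3 and SPRED2 had log2 fold changes of 1.47 and 0.66. SPRY1, which is scarce in these cells, went the other way, from 4.196 and 4.38 to 2.404 and 1.697 CPM (log2FC -1.05). This fall was lost without either 0 h library or replicate 2 at 3 h (adjusted p up to 0.17). Among the DUSP phosphatases, which strip ERK, JNK and p38 of their activating phosphates, DUSP2 was nearly silent and rose from 0.506 and 0.707 to 2.47 and 2.83 CPM (log2FC 2.10). DUSP8 (log2FC 1.32), DUSP10 (log2FC 1.22), DUSP5 (log2FC 0.94) and DUSP16 (log2FC 0.79) followed, and DUSP1, already at 523 CPM without HGF, gained 0.47. DUSP6, the main ERK phosphatase of the cytoplasm, was at 96.8 and 103 CPM at 0 h and 130.3 and 133 CPM at 3 h (log2FC 0.39 ± 0.08, adjusted p = 0.00418). Opposite-strand exons cover 28.6% of it. DUSP4 fell by 0.54, a call lost without replicate 1 at 0 h or replicate 2 at 3 h (adjusted p up to 0.0749). ERRFI1, an inhibitor of the EGFR kinase, rose from 376 and 351 to 696 and 731 CPM (log2FC 0.97). LRIG3, a relative of the receptor inhibitor LRIG1, fell from 21.3 and 17.4 to 9.28 and 8.41 CPM (log2FC -1.12).

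Of 22 tested genes for MET, HGF activation and MET turnover, 1 rose and 2 fell, against 10.3% and 7.16% of all genes. None of the 3 calls held in every leave-one-out fit. These were PTPN11, the phosphatase SHP2 (log2FC 0.24), PTPRJ, a phosphatase of MET (log2FC -0.52), and SDC1, a heparan sulfate carrier that binds HGF (log2FC -0.45). The call of PTPN11 was lost whichever of the 4 libraries was left out (adjusted p up to 0.221). That of PTPRJ was lost without replicate 1 at 0 h or either 3 h library (adjusted p up to 0.113), and that of SDC1 without replicate 1 at 0 h or either 3 h library (adjusted p up to 0.0827). The adaptor GRB2 (log2FC 0.02), the ubiquitin ligase CBL (log2FC 0.26) and the co-receptor CD44 (log2FC 0.01) were not called. Ligands of another receptor kinase, EGFR, rose. AREG was at 160.5 and 161 CPM at 0 h and 271 and 272 CPM at 3 h (log2FC 0.76 ± 0.13, adjusted p = 8.88e-04). EREG was at 619 and 595 CPM at 0 h and 841 and 879.7 CPM at 3 h (log2FC 0.50 ± 0.09, adjusted p = 9.40e-04). HBEGF was at 11.1 and 9.47 CPM at 0 h and 19.03 and 19.9 CPM at 3 h (log2FC 0.92 ± 0.15, adjusted p = 4.89e-04). These 3, all kept, were the only rises among 15 EGF-family genes, and the 1 fall was that of ERBB3. It was at 2.24 and 1.41 CPM at 0 h and 0.401 and 1.13 CPM at 3 h (log2FC -1.30, or -2.15 without replicate 2 at 3 h), a call lost without replicate 1 at 0 h or replicate 1 at 3 h (adjusted p up to 0.402).

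Of 29 cytokine and chemokine genes, 12 rose (9 kept) and 0 fell, against 10.3% and 7.16% of all genes. The median was 0.53 over the 25 members above 3 counts in some library. CXCL8, a neutrophil chemokine, was at 9.19 and 13.6 CPM at 0 h and 99.4 and 88.6 CPM at 3 h (log2FC 3.04 ± 0.25, adjusted p = 3.38e-06). IL11, an IL6-family cytokine already abundant in these cells, was at 284 and 281 CPM at 0 h and 1159 and 1213 CPM at 3 h (log2FC 2.07 ± 0.13, adjusted p = 5.25e-08). PTGS2, the inducible cyclooxygenase, rose from 37.8 and 28.2 to 87.1 and 94.9 CPM (log2FC 1.46). INHBA, the activin A subunit, went from 5.06 and 6.01 to 13.4 and 13.2 CPM (log2FC 1.26). GDF15 went from 240.1 and 228 to 465 and 428 CPM (log2FC 0.93). Both untreated libraries lay below both treated ones in each of these, which the naming rule required of CXCL8. LIF rose from 158 and 183 to 298 and 282 CPM (log2FC 0.76), and the shared receptor chain of this cytokine family, IL6ST, from 223 and 246 to 381 and 400.3 CPM (log2FC 0.74). CXCL1, another neutrophil chemokine, was scarce and went from 0.868 and 0.707 to 3.205 and 2.83 CPM (log2FC 1.93), a rise lost without either 0 h library or replicate 1 at 3 h (adjusted p up to 0.0945). BMP2 was at 0.506 and 1.06 CPM at 0 h and 2.94 and 2.83 CPM at 3 h (log2FC 1.87, or 2.52 without replicate 2 at 0 h). IL6 had few counts and was not called.

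Of 21 genes for NF-kappaB subunits and the inhibitors they induce, 13 rose (8 kept) and 1 fell (0 kept). Of all genes tested, 10.3% rose and 7.16% fell. TNFAIP3, the ubiquitin-editing protein A20, was at 22.5 and 33.1 CPM at 0 h and 118 and 97.5 CPM at 3 h (log2FC 1.96 ± 0.19, adjusted p = 9.42e-06). NFKBIA, which holds NF-kappaB in the cytoplasm, was at 44.3 and 46.1 CPM at 0 h and 140.0 and 120.4 CPM at 3 h (log2FC 1.53 ± 0.14, adjusted p = 3.49e-06). NFKBIE rose by 1.10 and BCL3 by 1.05. Of the subunits, REL rose by 1.23, NFKB2 by 0.62 and RELA by 0.57, and same-strand exons of other genes cover 33.3% of REL. In the STAT3 group 4 of 23 genes rose (3 kept) and 0 fell. SOCS3, the feedback inhibitor of IL6-type receptors, was at 107 and 110.1 CPM at 0 h and 238 and 237 CPM at 3 h (log2FC 1.13 ± 0.11, adjusted p = 5.90e-06). STAT3 itself was at 191 and 206 CPM at 0 h and 203 and 203 CPM at 3 h (log2FC 0.03 ± 0.07, adjusted p = 0.818).

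In the TGF-beta and BMP feedback list, 11 of 25 genes rose (9 kept) and 4 fell (1 kept), against 10.3% and 7.16% of all genes. SKIL, which represses SMAD-driven transcription, rose from 88.1 and 86.8 to 305 and 368 CPM (log2FC 1.94 ± 0.12, adjusted p = 5.59e-08). Its relative SKI rose from 51.3 and 56.8 to 153 and 171 CPM (log2FC 1.59 ± 0.12, adjusted p = 2.65e-07). The inhibitory SMAD7 rose from a mean of 43.6 to one of 95.9 CPM (log2FC 1.14). PMEPA1, which sequesters SMADs, went from 199 and 180.5 to 387 and 394 CPM (log2FC 1.04), and the BMP antagonist GREM1 from 47.2 and 74.5 to 139 and 147 CPM (log2FC 1.23). HES1, the Notch-responsive repressor placed in this list, rose from 12.01 and 11.7 to 36.6 and 39.5 CPM (log2FC 1.68). Opposite to these, the receptor TGFBR2 fell from 381 and 345 to 277 and 263 CPM (log2FC -0.43). ID1, a BMP target that inhibits differentiation factors, fell by 0.78, a call lost without replicate 1 at 0 h or either 3 h library (adjusted p up to 0.19). The co-receptor TGFBR3 fell by 0.93, a call lost without replicate 1 at 0 h or replicate 1 at 3 h (adjusted p up to 0.167).

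Of 37 FOXO factors and genes that AKT holds down through them, 13 fell (4 kept) and 5 rose (3 kept). Of all genes tested, 7.16% fell and 10.3% rose. The median of the list was -0.32. PDK4, which keeps pyruvate out of the mitochondrial cycle and is a classic FOXO target, was at 29.4 and 15.9 CPM at 0 h and 7.21 and 7.03 CPM at 3 h (log2FC -1.67 ± 0.27, adjusted p = 6.50e-04). TXNIP, which limits glucose uptake, was at 40.9 and 29.98 CPM at 0 h and 15.6 and 18.8 CPM at 3 h (log2FC -1.05 ± 0.18, adjusted p = 0.00105). CDKN1B, the CDK inhibitor p27, was at 78.4 and 79.5 CPM at 0 h and 52.7 and 55.9 CPM at 3 h (log2FC -0.54 ± 0.09, adjusted p = 4.63e-04). IRS2, an insulin receptor substrate, was at 168 and 184 CPM at 0 h and 133 and 132 CPM at 3 h (log2FC -0.41 ± 0.08, adjusted p = 0.00303). In each, both 3 h libraries were below both untreated ones, which the naming rule required of PDK4. These 4 were the only ones of the 13 falls that held in every leave-one-out fit. The muscle ubiquitin ligase FBXO32 fell by 0.69, a call lost without replicate 2 at 0 h or replicate 2 at 3 h (adjusted p up to 0.0671). The insulin receptor INSR fell by 0.64, a call lost without replicate 2 at 3 h (adjusted p = 0.0543). FOXO3 itself rose from 95.4 and 105 to 153 and 156 CPM (log2FC 0.62 ± 0.09, adjusted p = 1.69e-04). BTG1, an antiproliferative gene of the same list, went from 438 and 492 to 735 and 773 CPM (log2FC 0.70 ± 0.10, adjusted p = 2.76e-04).

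Invasive growth needs proteases, matrix and looser junctions. Of 24 genes of the urokinase system and matrix proteases, 4 rose, all kept, and 0 fell, against 10.3% and 7.16% of all genes. MMP25, a membrane-anchored metalloproteinase, was at 1.01 and 1.63 CPM at 0 h and 26.6 and 21.3 CPM at 3 h (log2FC 4.17 ± 0.26, adjusted p = 5.25e-08), with opposite-strand exons over 30.6% of it. TIMP3, a metalloproteinase inhibitor, was at 1.16 and 0.566 CPM at 0 h and 7.61 and 9.54 CPM at 3 h (log2FC 3.30 ± 0.48, adjusted p = 4.33e-04), and its log2FC was 3.90 without replicate 1 at 0 h. The urokinase receptor PLAUR rose from 126 and 130.4 to 219 and 203 CPM (log2FC 0.72). Of 27 integrins and matrix genes 6 rose (3 kept) and 1 fell (0 kept). The matrix protein gene TNC rose by 0.64 and the fibronectin receptor ITGA5 by 0.58, and both calls held with each library left out.

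In the list of EMT factors and junctions 7 of 34 rose (4 kept) and 5 fell (0 kept), against 10.3% and 7.16% of all genes. SNAI2, a repressor of E-cadherin, was at 1.52 and 1.13 CPM at 0 h and 8.28 and 9.46 CPM at 3 h (log2FC 2.73 ± 0.21, adjusted p = 5.34e-07). ZEB1 rose from 53.97 and 50.1 to 103 and 104 CPM (log2FC 0.99). ZEB2 went from 33.3 and 33.4 to 51.9 and 53.4 CPM (log2FC 0.66), while SNAI1 gained 1.03, a call lost without replicate 2 at 3 h (adjusted p = 0.0782). CLDN4, an epithelial tight junction protein, rose too, from 5.64 and 6.504 to 17.7 and 23.1 CPM (log2FC 1.74 ± 0.27, adjusted p = 5.63e-04). CDH1, E-cadherin, was at 12.6 and 5.94 CPM at 0 h and 4.67 and 5.25 CPM at 3 h (log2FC -0.90, or -0.26 without replicate 1 at 0 h). This fall was lost without replicate 1 at 0 h or either 3 h library (adjusted p up to 0.571). Vimentin, VIM, had a log2 fold change of 0.02 (adjusted p = 0.901). Genes driven by SRF and its actin-regulated partners had 6 of 34 members higher (3 kept), 2 lower (1 kept) and a median of 0.10. ZYX rose from 156 and 167 to 267 and 253 CPM (log2FC 0.69). TUFT1 went from 53.3 and 64.1 to 100.2 and 105 CPM (log2FC 0.81), while TPM1 fell from 183 and 171 to 121 and 121 CPM (log2FC -0.55). Of 26 YAP and TEAD targets 6 rose (4 kept) and 4 fell (2 kept), the Hippo kinases LATS1 (log2FC 0.79) and LATS2 (log2FC 0.73) among the rises, and CCN1 (log2FC 0.20) and CCN2 (log2FC 0.37) were not called.

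**Figure D3:**
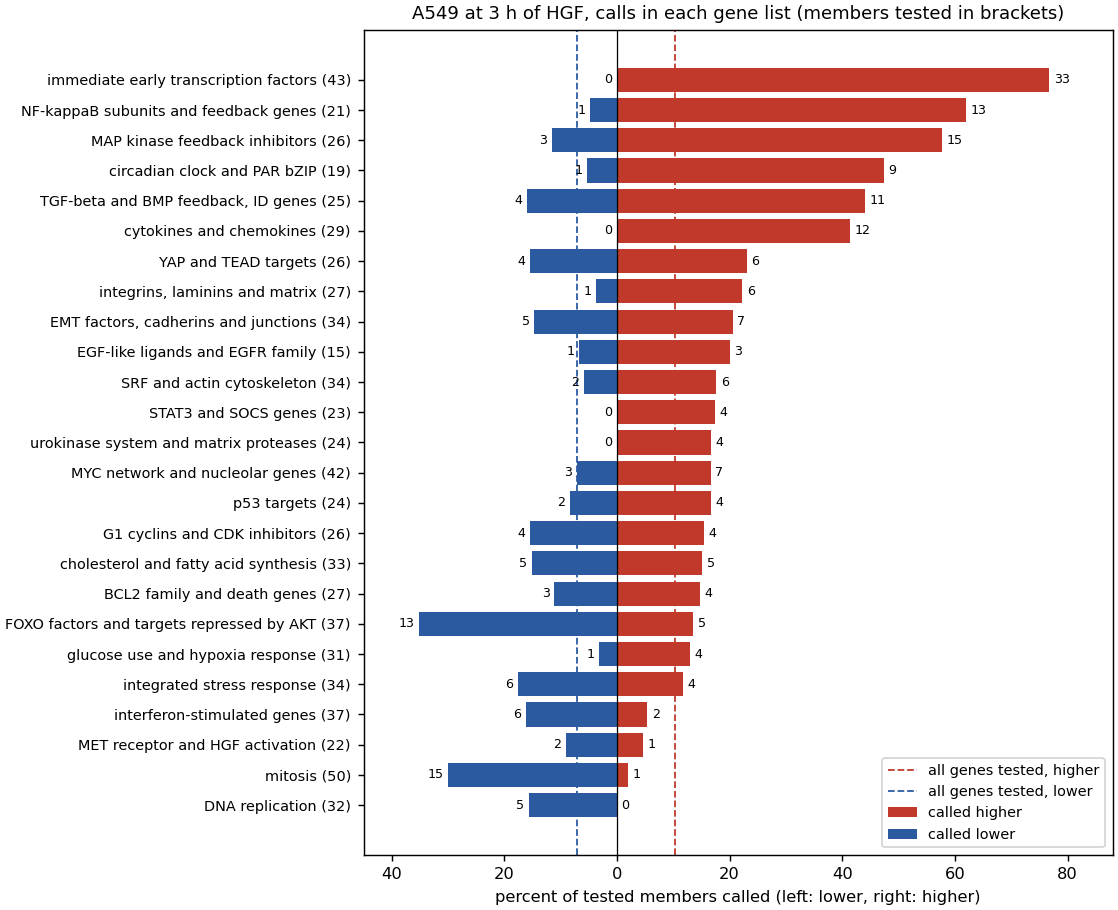
Percent of the tested members of each gene list called higher (red, to the right) or lower (blue, to the left) at 3 h in A549, with the number of calls at the end of each bar and the number of members tested in brackets. Dashed lines mark the 10.3% of all genes tested called higher and the 7.16% called lower. The immediate early genes lead on the right with 33 of 43, and the FOXO targets with 13 of 37 and mitosis with 15 of 50 reach furthest to the left.

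MCL1, the short-lived BCL2 relative, was at 985 and 1164 CPM at 0 h and 1874 and 2042 CPM at 3 h (log2FC 0.87 ± 0.09, adjusted p = 1.76e-05). BMF, a proapoptotic relative, was at 8.103 and 5.94 CPM at 0 h and 18.4 and 16.97 CPM at 3 h (log2FC 1.33 ± 0.21, adjusted p = 4.70e-04). BCL2L1 fell by 0.47, a call lost without replicate 2 at 0 h or replicate 2 at 3 h (adjusted p up to 0.111), and 4 of 27 genes of this list rose (3 kept) and 3 fell (0 kept). For this list and those that follow, the shares of all genes tested were 10.3% higher and 7.16% lower. Of 50 mitosis genes, 15 fell (2 kept) and 1 rose (0 kept), with a median of -0.34. KIF20A, a mitotic kinesin, went from 8.32 and 7.21 to 4.34 and 4.36 CPM (log2FC -0.83 ± 0.16, adjusted p = 0.00213). PLK1, the polo kinase, went from 24.7 and 23.8 to 14.9 and 13.2 CPM (log2FC -0.78 ± 0.15, adjusted p = 0.00157). CCNB1 fell by 0.66, a call lost without replicate 1 at 3 h (adjusted p = 0.0632), and MKI67 fell by 0.58, lost whichever of the 4 libraries was left out (adjusted p up to 0.198). In DNA replication 5 of 32 fell (1 kept) and 0 rose. Of 26 G1 genes 4 rose (1 kept) and 4 fell (2 kept). SKP2, the ubiquitin ligase subunit that removes p27, fell from 6.87 and 4.52 to 2.804 and 2.18 CPM (log2FC -1.17 ± 0.20, adjusted p = 9.79e-04). Among p53 targets 4 of 24 rose (2 kept) and 2 fell (0 kept), and CDKN1A had a log2 fold change of 0.29 (adjusted p = 0.19).

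The stress and metabolic lists held a few strong members, while 47.4% of the tested clock genes rose. Of all genes tested, 10.3% rose and 7.16% fell. DDIT3 rose from 204 and 248 to 520.2 and 523 CPM (log2FC 1.21) with opposite-strand exons over 31.6% of it, and PPP1R15A, which restores translation, from 1104 and 1329.5 to 2149 and 2158 CPM (log2FC 0.82). The ATF4 target CHAC1 fell instead, from 23.5 and 17.4 to 9.01 and 6.47 CPM (log2FC -1.39 ± 0.20, adjusted p = 1.94e-04). In the list of the integrated stress response 4 of 34 genes rose (3 kept) and 6 fell (2 kept). Of 19 clock genes 9 rose (5 kept) and 1 fell (0 kept). PER1 was at 234 and 316 CPM at 0 h and 531 and 494 CPM at 3 h (log2FC 0.90 ± 0.13, adjusted p = 1.64e-04). PER2 was at 134 and 146 CPM at 0 h and 219 and 218 CPM at 3 h (log2FC 0.64 ± 0.10, adjusted p = 5.50e-04), and PER3 gained 0.65. PFKFB3, which makes the activator of phosphofructokinase, rose from 217 and 213 to 591 and 627 CPM (log2FC 1.502 ± 0.11, adjusted p = 4.00e-07). Its list of glycolysis and hypoxia genes had 4 of 31 higher (3 kept) and 1 lower (0 kept). In sterol and fatty acid synthesis 5 of 33 rose (3 kept) and 5 fell (0 kept). INSIG1, which holds back the activation of sterol synthesis, was among the rises (log2FC 1.59). Of 42 MYC network and nucleolar genes 7 rose (5 kept) and 3 fell (0 kept), with a median of -0.07. ODC1, the first enzyme of polyamine synthesis, rose from 653 and 919 to 1633 and 1794 CPM (log2FC 1.12 ± 0.18, adjusted p = 7.12e-04). Interferon-stimulated genes had 2 of 37 higher (1 kept) and 6 lower (0 kept). IFIT2 was at 2.89 and 1.13 CPM at 0 h and 0.401 and 0.162 CPM at 3 h (log2FC -2.74, or -1.92 without replicate 1 at 0 h), a fall lost without replicate 1 at 0 h or replicate 2 at 3 h (adjusted p up to 0.102).

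Several of the largest rises lay outside these lists. CYP1B1, a cytochrome P450 enzyme induced through the aryl hydrocarbon receptor, was at 24.02 and 36.3 CPM at 0 h and 458 and 447 CPM at 3 h (log2FC 3.91 ± 0.15, adjusted p = 9.52e-11). Its relative CYP1A1 was at 2.098 and 6.01 CPM at 0 h and 30.8 and 24.8 CPM at 3 h (log2FC 2.77 ± 0.33, adjusted p = 6.01e-05), and its log2FC was 3.76 without replicate 2 at 0 h. TIPARP, an ADP-ribosyltransferase that dampens the same receptor, was at 79.4 and 104 CPM at 0 h and 873 and 873 CPM at 3 h (log2FC 3.26 ± 0.11, adjusted p = 3.40e-11). HAS2, which makes hyaluronan, a ligand of CD44, was at 10.2 and 11.6 CPM at 0 h and 81.6 and 85.5 CPM at 3 h (log2FC 2.94 ± 0.15, adjusted p = 4.00e-09). The membrane semaphorin SEMA7A was at 2.97 and 3.25 CPM at 0 h and 21.6 and 26.996 CPM at 3 h (log2FC 2.96 ± 0.18, adjusted p = 3.18e-08). In all 5 genes both 3 h libraries lay above both at 0 h, which the rule for naming them required.

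The 12 largest falls among well-expressed genes were smaller, between -1.67 and -1.10. After PDK4 came DPYSL2, a microtubule-binding protein, at 77.3 and 57.7 CPM at 0 h and 23.4 and 23.5 CPM at 3 h (log2FC -1.52 ± 0.15, adjusted p = 4.51e-06). Of the 12, 4 encode receptors or regulators of Wnt signalling. LGR4, the R-spondin receptor, was at 209 and 149 CPM at 0 h and 75.9 and 76.8 CPM at 3 h (log2FC -1.23 ± 0.12, adjusted p = 4.51e-06). The Wnt antagonist DKK1 was at 535 and 657 CPM at 0 h and 283 and 248 CPM at 3 h (log2FC -1.17 ± 0.13, adjusted p = 1.80e-05). The Wnt receptor FZD2 was at 50.2 and 47.2 CPM at 0 h and 23.5 and 21.9 CPM at 3 h (log2FC -1.10 ± 0.14, adjusted p = 7.23e-05). AMER1, a part of the beta-catenin destruction complex, was at 19.2 and 13.8 CPM at 0 h and 7.34 and 6.304 CPM at 3 h (log2FC -1.27 ± 0.17, adjusted p = 1.12e-04). The adaptor DOK4 fell by 1.13, the sorting nexin SNX33 fell by 1.12, the mucin-type glycosyltransferase GCNT3 fell by 1.25 and the zinc finger gene ZNF33B fell by 1.44. None of the 12 had overlapping groups, which the rule for naming them required.

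Genes that doubled at 3 h had fewer exons than genes in general. Their median was 6 exons over a span of 27.6 kb, where all tested genes had 8 exons over 30.0 kb. Those that lost at least 2-fold had 4 exons over 15.9 kb. All 1550 rises together, the small ones included, had 9 exons over 44.5 kb, and all 1079 falls 6 exons over 26.4 kb. These are medians without a test.

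The 3 h response of NCI-H596, measured against its own 0 h libraries, was tested against that of A549 as a difference of log2 fold changes. It differed for 2621 genes, 17.4% of those tested, with 1276 (8.47%) higher and 1345 (8.93%) lower in A549. In NCI-H596 2339 genes rose and 2430 fell, 15.5% and 16.1% of those tested. Of the 1550 rises of A549, 664 were also called higher there, which is 42.8% of the A549 list and 28.4% of the NCI-H596 list, 149 were called lower and 737 were not called. Of the 1079 falls 395 were shared, 36.6% and 16.3% of the lists. For the 236 genes that doubled in A549 the counts were 97 higher, 25 lower and 114 not called, and for 142 of them the response itself differed.

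Among genes whose log2 CPM, averaged over 0 and 3 h, reached 3 in both lines, the 5 largest differences with the higher response in A549 were those of EGR1, FOS, FOSB, JUNB and NR4A2. EGR1 was at 212 and 228 CPM at 0 h and 128 and 115 CPM at 3 h in NCI-H596 (log2FC -0.86 ± 0.22, adjusted p = 0.00949; difference 5.58 ± 0.33, adjusted p = 2.41e-07). FOS was at 36.2 and 34.3 CPM at 0 h and 30.9 and 29.4 CPM at 3 h (difference 4.43 ± 0.19, adjusted p = 4.86e-09). For EGR1 and FOS the 3 h libraries lay below the 0 h libraries there. FOSB was at 20.7 and 20.8 CPM at 0 h and 41.6 and 40.6 CPM at 3 h (difference 4.22 ± 0.26, adjusted p = 1.95e-07). JUNB was at 224 and 239 CPM at 0 h and 258 and 237 CPM at 3 h (difference 3.80 ± 0.17, adjusted p = 4.86e-09). NR4A2 was at 11.7 and 11.5 CPM at 0 h and 9.77 and 10.5 CPM at 3 h (difference 3.02 ± 0.25, adjusted p = 1.54e-06). Of the 43 early genes, 32 differed, 23 with the higher response in A549 and 9 with the lower. Of all genes tested, 17.4% differed, 8.47% with the higher response in A549 and 8.93% with the lower. EGR4 rose in both lines (log2FC 5.90 in A549, or 8.78 without replicate 2 at 0 h, and 4.58 in NCI-H596), a difference that missed the threshold (adjusted p = 0.391). FOSL1 and MAFF rose more in NCI-H596. FOSL1 had a log2FC of 1.25 in A549 and 3.04 in NCI-H596 (difference -1.79 ± 0.20, adjusted p = 2.23e-05). MAFF had a log2FC of 0.42 in A549 and 2.10 in NCI-H596 (difference -1.67 ± 0.20, adjusted p = 3.78e-05), its A549 call being lost without replicate 1 at 0 h or either 3 h library (adjusted p up to 0.342).

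**Figure D4:**
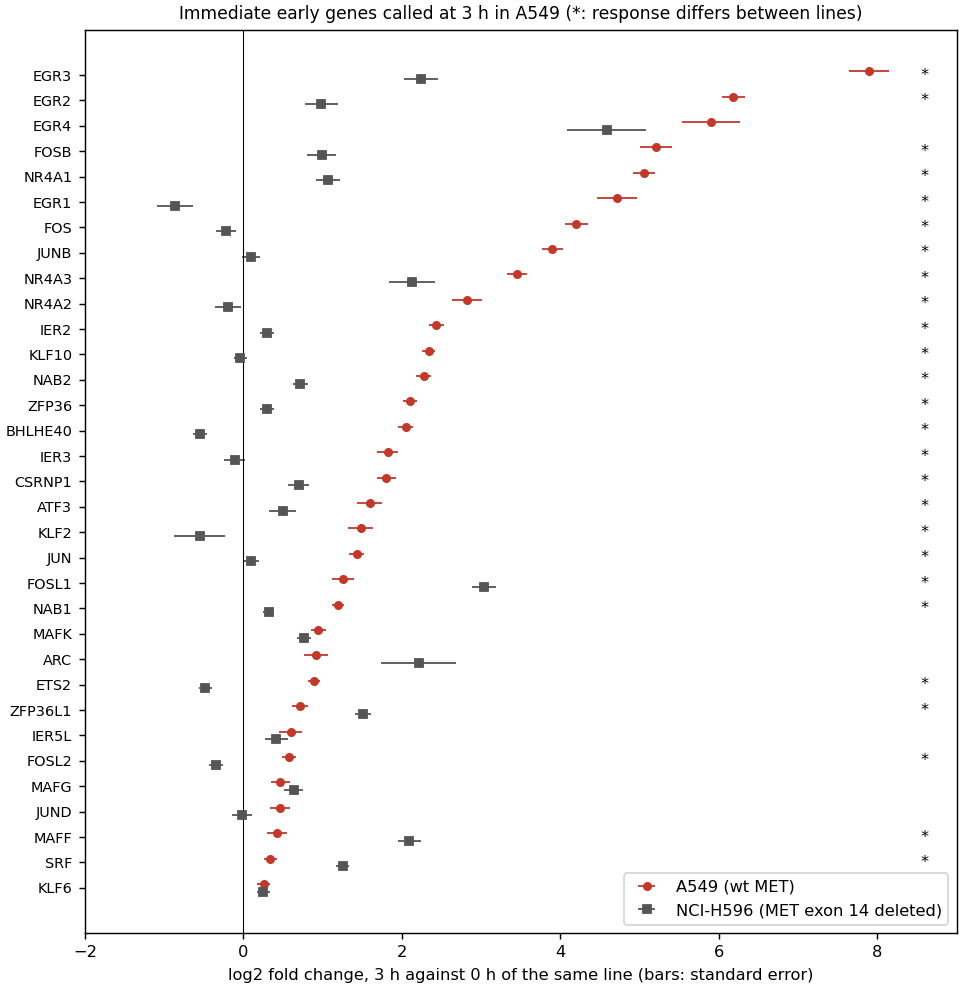
Log2 fold change at 3 h against 0 h of the same line (horizontal axis) for the 33 immediate early genes called higher in A549. Genes are ordered by their A549 value. Bars are the approximate standard errors worked back from the F test. Circles are A549 and squares NCI-H596, and an asterisk marks a response that differed between the lines. EGR1, FOS, JUNB and NR4A2 are near 0 or below it in NCI-H596, and FOSL1 and ZFP36L1 lie to the right of A549.

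Under the same minimum, the 5 largest differences in the other direction were those of CITED4, GPAT3, LIF, RGS2 and NRG1. LIF rose in A549 by 0.76 and stood in NCI-H596 at 4.56 and 4.67 CPM at 0 h and 49.2 and 47.3 CPM at 3 h (difference -2.62 ± 0.18, adjusted p = 2.41e-07). RGS2, which shortens G protein signals, was in A549 at 22.2 and 29.1 CPM at 0 h and 18.96 and 21.98 CPM at 3 h (log2FC -0.33). In NCI-H596 it was at 19.2 and 23.3 CPM at 0 h and 101 and 88.01 CPM at 3 h (difference -2.48 ± 0.23, adjusted p = 4.41e-06). NRG1, a ligand of ERBB3, had a log2FC of -0.17 in A549 and 2.28 in NCI-H596 (difference -2.45 ± 0.14, adjusted p = 5.44e-08). CITED4, which binds the coactivators CBP and p300, had log2FCs of -0.41 and 2.64 (difference -3.04 ± 0.36, adjusted p = 5.47e-05). GPAT3, an enzyme of glycerolipid synthesis, had log2FCs of -0.05 and 2.67 (difference -2.72 ± 0.13, adjusted p = 5.18e-09). At the level of lists, 19 of the 34 tested SRF and actin genes differed, all with the lower response in A549. The list median was 0.10 in A549 and 0.77 in NCI-H596. Of all genes tested, 17.4% differed, 8.93% with the lower response in A549. Among the 42 tested MYC network and nucleolar genes 30 differed, 29 of them lower in A549, with medians of -0.07 and 0.69. For the clock genes the medians were 0.43 in A549 and -0.46 in NCI-H596, and for the FOXO targets -0.32 and -0.53.

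The genes of the study's RT-qPCR probe list, normalisation genes included, moved in part. Of the 19 tested, 6 rose, all kept, and 4 fell, against 10.3% and 7.16% of all genes, and 9 were not called. The rises included those of TIMP3, CXCL8, ATF3 and DDIT3, given above. TBP, which the study used together with a ribosomal RNA for normalisation, rose as well, from 12.8 and 11.5 to 19.6 and 18.7 CPM (log2FC 0.65 ± 0.12, adjusted p = 0.0016). The 4 falls, those of CDH1, CDC45, AURKB and TOP2A, were all lost with some library left out. CDC45 fell by 0.66, a call lost without replicate 2 at 0 h or either 3 h library (adjusted p up to 0.212). AURKB fell by 0.62, a call lost whichever of the 4 libraries was left out (adjusted p up to 0.234). TOP2A fell by 0.39, a call lost without replicate 1 at 3 h (adjusted p = 0.0784). That of CDH1 was lost without replicate 1 at 0 h or either 3 h library (adjusted p up to 0.571), with a log2FC of -0.26 without replicate 1 at 0 h. TIMP3 moved to 3.90 without replicate 1 at 0 h.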

How the data were processed

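Poly(A) RNA of A549 and NCI-H596 cells was sequenced after 0, 3, 6 and 12 h of HGF, with 2 libraries per condition. Per the labels and the study's methods, adapters were removed by the authors, who aligned with STAR 2.5.0 against hg38 and deposited raw counts per gene. RSEM 1.3.2 is also named in the submitters' processing notes, so that the whole-number counts may be rounded estimates. The annotation and the strand setting are not given in the sources used here. The table named the wt libraries H549 where their titles have A549; the time, status and number in the name matched each to 1 title. The paper's text names another wt line, and the label A549 was followed. Genes annotated as lncRNA make up 0.0798% of those tested.

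Counts were filtered with filterByExpr (minimum count 10, minimum total 15), scaled by TMM and fitted in edgeR 4.0.16 (limma 3.58.1, R 4.3.3) with glmQLFit, robust, over all 16 libraries and 1 coefficient per line and time, which share one estimate of the spread (common BCV 0.0868). glmQLFTest gave the contrast of 3 h with 0 h in A549 and its difference from that in NCI-H596, with Benjamini-Hochberg adjustment over 15067 genes at 0.05. Of the remaining genes, 19306 had no count in any library. Log2 CPM used a prior count of 2. The floor was set at 3 counts per library and covers counting error only. In counts simulated from these libraries with 200 changed genes, the A549 test recovered 62.7% of changes of 1.5-fold, 83.6% of 2-fold and 98.5% of 4-fold, with 8 false calls, and the test of the difference 26.9%, 58.2% and 87.9%, with 6. The changed genes were drawn only from those above a count minimum in A549. Each gene had the same spread in every group, unlike the real 0 and 3 h pairs (chi-square per degree of freedom 10.4 and 3.26). These shares therefore do not carry over to scarce genes or to the uneven 0 h pair.

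The genes named were MET, HGF and the label checks, the 15 largest rises and 12 largest falls among called genes whose mean log2 CPM reached 3 and groups that do not overlap, the 5 largest differences in each direction between the lines, and up to 6 called members of each list with their family members; EGR3 and EGR4 are named as list members. Some list members are counted but not reported here by name. The members, lists and tests were chosen with earlier results of these data known. Promoters came from RefSeq (GRCh38.p14). Alternatives were DESeq2 1.42.0, its size factors in edgeR, no filter on low counts, at least 10 counts in each of the 4 libraries, a minimum log2 fold change of 1, a replicate block, fits of fewer libraries and leaving out each library. Figures were drawn in Python 3.11.15 with matplotlib 3.10.9 and pandas 2.3.3.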

Additional observations from a re-analysis of the deposited data

Results flagged for a closer look

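The response to 3 h of HGF differed between A549 and NCI-H596 for 2621 genes by the test of the difference itself (edgeR, Benjamini-Hochberg adjusted p under 0.05). Only genes whose log2 CPM, averaged over 0 and 3 h, reached 3 in both lines are ranked here. With the higher response in A549, the 5 largest differences of log2 fold changes (A549 minus NCI-H596) were EGR1 with 5.58, FOS with 4.43, FOSB with 4.22, JUNB with 3.80 and NR4A2 with 3.02. With the lower response in A549, they were CITED4 with -3.04, GPAT3 with -2.72, LIF with -2.62, RGS2 with -2.48 and NRG1 with -2.45. MET status and cell line cannot be told apart in these differences. Groups of 2 libraries were too small to look for a sample far from the others.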

How the results depend on the processing

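The counts of A549 genes called at 3 h (2629, of which 1550 higher and 1079 lower) stayed within 1.5 times of these values with DESeq2, with its size factors in edgeR, without a filter on low counts, with at least 10 counts in each of the 4 libraries, and with only the A549 libraries or only the 0 and 3 h libraries fitted. A minimum absolute log2 fold change of 1 left 389 genes, 236 higher and 153 lower, and 854 of the 2621 genes whose response differed between the lines. Leaving out each library gave 1363 to 2364 calls, 989 to 1407 higher and 374 to 957 lower: without replicate 2 at 3 h there were 1363, 989 and 374, without replicate 1 at 3 h 1588 and 420 lower, and without replicate 1 at 0 h 1530 and 461 lower. For the difference the range was 1743 to 2314, with 1743 without NCI-H596 replicate 1 at 0 h; a group left with 1 library is assumed to vary like the others. The replicate numbers did not pair the libraries: the deviations of same-numbered A549 libraries at 0 and 3 h correlated at 0.0345, and with the numbers as a block 2206 genes were called, 1351 higher and 855 lower, with 2286 for the difference.

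Of 176 named genes, 172 were called alike with DESeq2, 175 with its size factors, 172 without a filter, 168 with the block and 137 to 154 with 1 library left out, where most other calls were lost. A change of sign was seen only with a library left out, in genes not called: over the 4 such fits the log2 fold change ran from -0.014 to 0.092 for MET, -1.49 to 0.034 for MTAP, -0.088 to 0.018 for GPAT3, -1.88 to 0.58 for CD14, -0.88 to 3.38 for IL6, -0.0058 to 0.24 for GADD45A, -1.42 to 1.33 for MMP1, -0.11 to 0.018 for AURKA and -0.90 to 0.18 for E2F1. Depth limits the scarce genes, since 1 CPM is about 12 to 15 counts here, and changes under 1.5-fold.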

Other observations

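Further genes were looked at after their values had been seen, so that their counts describe these libraries only. Of 9 tested genes for the aryl hydrocarbon receptor and its textbook targets, 4 rose, 0 fell and 5 were not called. Of all genes tested, 10.3% rose and 7.16% fell. Beside CYP1B1, TIPARP and CYP1A1 (log2 fold changes 3.91, 3.26 and 2.77, the last 3.76 without replicate 2 at 0 h), the 4 rises included AHRR, the repressor of the receptor. It went from 5.14 and 7.49 to 24.4 and 23.2 CPM (log2FC 1.91 ± 0.27, adjusted p = 2.61e-04), with same-strand exons of other genes over 58.7% of it. The receptor AHR was at 234 and 211 CPM at 0 h and 233 and 224 CPM at 3 h (log2FC 0.04 ± 0.08, adjusted p = 0.813) and its partner ARNT had a log2FC of 0.19. The targets shared with the oxidative stress factor NRF2 were not called, NQO1 with -0.23 and ALDH3A1 with -0.16. In NCI-H596, AHRR had 1.41, CYP1A1 1.77, CYP1B1 1.14 and TIPARP 0.28, and the response differed between the lines for CYP1B1 (adjusted p = 2.39e-07) and TIPARP (1.15e-08) but was not called different for AHRR (0.381) and CYP1A1 (0.213).

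Of 36 tested Wnt pathway genes, 4 rose and 8 fell, against 10.3% and 7.16% of all genes. WNT9A, a ligand, rose from 28.4 and 42.3 to 129 and 129.9 CPM (log2FC 1.87 ± 0.15, adjusted p = 6.89e-07) and was the only rise kept with each library left out. The falls kept were LGR4 (log2FC -1.23), DKK1 (log2FC -1.17), FZD2 (log2FC -1.10) and AMER1 (log2FC -1.27). In NCI-H596 DKK1 and AMER1 went the other way, with 1.12 and 0.84, and both responses differed between the lines (adjusted p = 9.31e-07 and 1.55e-05).

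Of 11 tested Hedgehog pathway genes, SHH rose from 2.46 and 2.404 to 6.68 and 6.63 CPM (log2FC 1.45 ± 0.21, adjusted p = 1.99e-04) and 4 fell, against 7.16% of all genes. None of these 4 calls, those of PTCH1, SMO, GLI1 and CDON, held in all 4 leave-one-out fits. PTCH1, the SHH receptor, was at 21.3 and 16.1 CPM at 0 h and 9.48 and 8.89 CPM at 3 h (log2FC -1.02 ± 0.21, adjusted p = 0.00389), a fall lost without replicate 1 at 0 h (adjusted p = 0.0602). Among 27 semaphorins, plexins and neuropilins, 3 rose and 1 fell, where 10.3% and 7.16% of all genes did. SEMA6A went from 1.95 and 3.04 to 8.55 and 7.03 CPM (log2FC 1.64 ± 0.22, adjusted p = 1.25e-04) beside SEMA7A (log2FC 2.96), and the rise of SEMA3F (log2FC 0.69) was lost without replicate 2 at 0 h or replicate 1 at 3 h (adjusted p up to 0.229) and the fall of NRP1 (log2FC -0.40) without replicate 1 at 0 h or either 3 h library (adjusted p up to 0.115).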
